A study of Mus musculus with 10 samples.

Results

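The genes described here encode the proteins that license DNA for replication and start the replication fork: the 6 subunits of the MCM helicase (Mcm2, Mcm3, Mcm4, Mcm5, Mcm6, and Mcm7), the helicase partners Cdc45 and Gins2, the MCM loading factor Cdt1, and the sliding clamp Pcna. They were taken by name, as the rows whose Ensembl identifier maps to these symbols, and make up 10 of the 21939 genes in the deposited table. All 10 had enough counts to be tested. The table holds RNA sequencing of hepatocytes that were freshly isolated from male mice 12 days after injection of AAV8Cre, with 1 library per mouse. The labels give the age of the mice as 8 to 9 weeks and do not say whether this was at injection or at isolation. AAV8Cre is an adeno-associated virus of serotype 8 in which Cre recombinase is driven by the thyroxine-binding globulin promoter, which is active in hepatocytes and not in the other cells of the liver. The 3 control mice were wild-type C57BL/6J mice, which received the same virus. The others carried floxed alleles on that background, of Nrf2 in the 2 mice labelled Nrf2 KO, of p65 in the 2 mice labelled p65 KO, and of both genes in the 3 mice labelled DKO. Nrf2 is a transcription factor of the antioxidant response and p65 is a subunit of NF-κB.

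In late mitosis and G1, the origin recognition complex, Cdc6, and Cdt1 load the ring of Mcm2 to Mcm7 onto origins of replication, which licenses them. In S phase the ring is joined by Cdc45 and by the GINS complex, of which Gins2 is a subunit, and the assembly unwinds DNA at the fork, where Pcna holds the polymerases on the template. Most hepatocytes of an adult liver are out of the cell cycle, and transcription of these genes, many of them targets of the E2F factors, is known to rise when hepatocytes enter it.

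Promoter sequence was available for 8 of the 10 genes (not for Mcm4 and Gins2) from RefSeq on GRCm38.p6, and each sequence matched GRCm39 once. Of the 250 bases before the start site, the part outside the GENCODE gene is shown for 4 helicase genes, 2 of which hold E2F-like letters (Mcm5 and Mcm6) and 2 of which do not (Mcm2 and Mcm3). The sequences run 5′ to 3′ on the strand of the gene. The Mcm2 sequence lies at chr6:88875763-88876012 (minus strand), Mcm3 at chr1:20890537-20890786 (minus strand), Mcm5 at chr8:75835887-75836136 (plus strand), and Mcm6 at chr1:128287517-128287692 (minus strand). Capitals mark the letters TTCCCGC or TTGGCGC or TTCGCGC or TTGCCGC on either strand, and matches on opposite strands overlap where a run of capitals is longer than 7 letters.
Mcm2: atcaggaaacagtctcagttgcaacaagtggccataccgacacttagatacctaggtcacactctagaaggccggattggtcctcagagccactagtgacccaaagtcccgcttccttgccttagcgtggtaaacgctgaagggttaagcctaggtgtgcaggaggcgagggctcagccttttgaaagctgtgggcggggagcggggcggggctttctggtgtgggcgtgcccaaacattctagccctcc
Mcm3: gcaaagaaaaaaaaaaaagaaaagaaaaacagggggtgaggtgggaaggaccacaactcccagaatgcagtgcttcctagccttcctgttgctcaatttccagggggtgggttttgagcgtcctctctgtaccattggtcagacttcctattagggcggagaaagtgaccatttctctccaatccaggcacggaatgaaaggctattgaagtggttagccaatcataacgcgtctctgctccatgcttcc
Mcm5: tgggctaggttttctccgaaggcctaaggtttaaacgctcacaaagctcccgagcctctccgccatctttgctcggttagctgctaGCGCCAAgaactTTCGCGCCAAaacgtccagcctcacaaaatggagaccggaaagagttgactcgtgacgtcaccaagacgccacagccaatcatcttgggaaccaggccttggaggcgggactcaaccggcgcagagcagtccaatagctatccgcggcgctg
Mcm6: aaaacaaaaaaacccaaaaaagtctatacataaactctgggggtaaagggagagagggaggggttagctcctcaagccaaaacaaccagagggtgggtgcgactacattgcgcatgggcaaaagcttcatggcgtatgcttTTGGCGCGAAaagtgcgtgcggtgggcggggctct

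In the full window of 250 bases, these E2F-like letters occurred in 3 of the 8 genes, Mcm5, Mcm6, and Mcm7, and in 9.01% of the 27025 genes with such a window. The letters CCAAT (either strand) occurred in 7 of the 8, every one but Cdt1, and in 37.5% of all genes. TTTGAA or TTCGAA, which resemble the cell cycle homology region, occurred in Mcm2, Mcm7, and Cdc45 and in 19.6% of all genes. TGACNNNGC, the core of the antioxidant response element that Nrf2 binds, occurred in Pcna alone of the 8 and in 11.5% of all genes. GGGNNNNNCC, a loose form of the κB motif, occurred in 5 of the 8 (Mcm2, Mcm3, Mcm7, Cdt1, and Pcna) and in 48.7% of all genes. These are matches of letters in a fixed window and do not show binding. The windows of Mcm7 and Cdc45 lay wholly inside the GENCODE gene, so their matches are downstream of its annotated start. Part of the window was also inside the gene for Mcm6 (74 bases), Cdt1 (51), and Pcna (134).

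Total counts per library ranged from 33707165 to 49897382. Values are given as normalized counts, which are the deposited estimated counts divided by the library size after scaling by the TMM method, relative to the mean library size. The targeted genes do not check the labels, since the table gives 1 total per gene, in which reads of the floxed exons cannot be separated from the others. Nfe2l2, the gene of Nrf2, had between 1990 and 2318 normalized counts in the control libraries and 4739 and 5005 in the libraries labelled Nrf2 KO, thus more and not less. Rela, the gene of p65, had between 1221 and 1276 in control and 1183 and 1209 in the libraries labelled p65 KO. The study reported efficient loss of both in isolated hepatocytes of mice of these genotypes, by RT-qPCR and Western blot. The counts here do not test that. Genotypes are named as in the labels. The summed level of 8 hepatocyte markers, among them Alb and Ttr, was between 3539000 and 5576400 normalized counts in every library. One library stood apart for the genes described here: DKO replicate 3 had the highest level of the 10 libraries for all 10 of them. For the 10 genes, tests that use the DKO libraries are therefore also given without this library, and so are counts of called genes that changed without it. In whole hepatocyte preparations, fewer cells that express a gene and less of its RNA per cell cannot be told apart.

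Per kilobase of the canonical transcript, the genes spanned a wide range in the control libraries. Pcna stood at 486 ± 34.3 normalized counts per kilobase (SD, n = 3) and Mcm7 at 149 ± 17.4, and these were the only 2 of the 10 above 100. Mcm6 followed with 34.1 ± 8.81, then Cdt1 with 23.0 ± 1.80, Mcm4 with 20.5 ± 6.79, and Mcm2 with 17.5 ± 6.20. Mcm3 stood at 14.5 ± 2.77, Mcm5 at 11.5 ± 2.62, Cdc45 at 10.4 ± 0.320, and Gins2 at 5.06 ± 1.33. From Cdt1 to Cdc45, the control libraries of each gene overlapped those of the next in this order. Mcm7 and Pcna, the 2 most abundant, were also the 2 whose sequence is shared most with pseudogenes. Of the stretches of 31 bases in the Mcm7 transcripts, 26.4% also occur in Gm5487, and 34.7% of those in Pcna occur in Pcna-ps2. Both pseudogenes were not analysed here, and the values of Mcm7 and Pcna are uncertain to that extent.

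**Figure D1:**
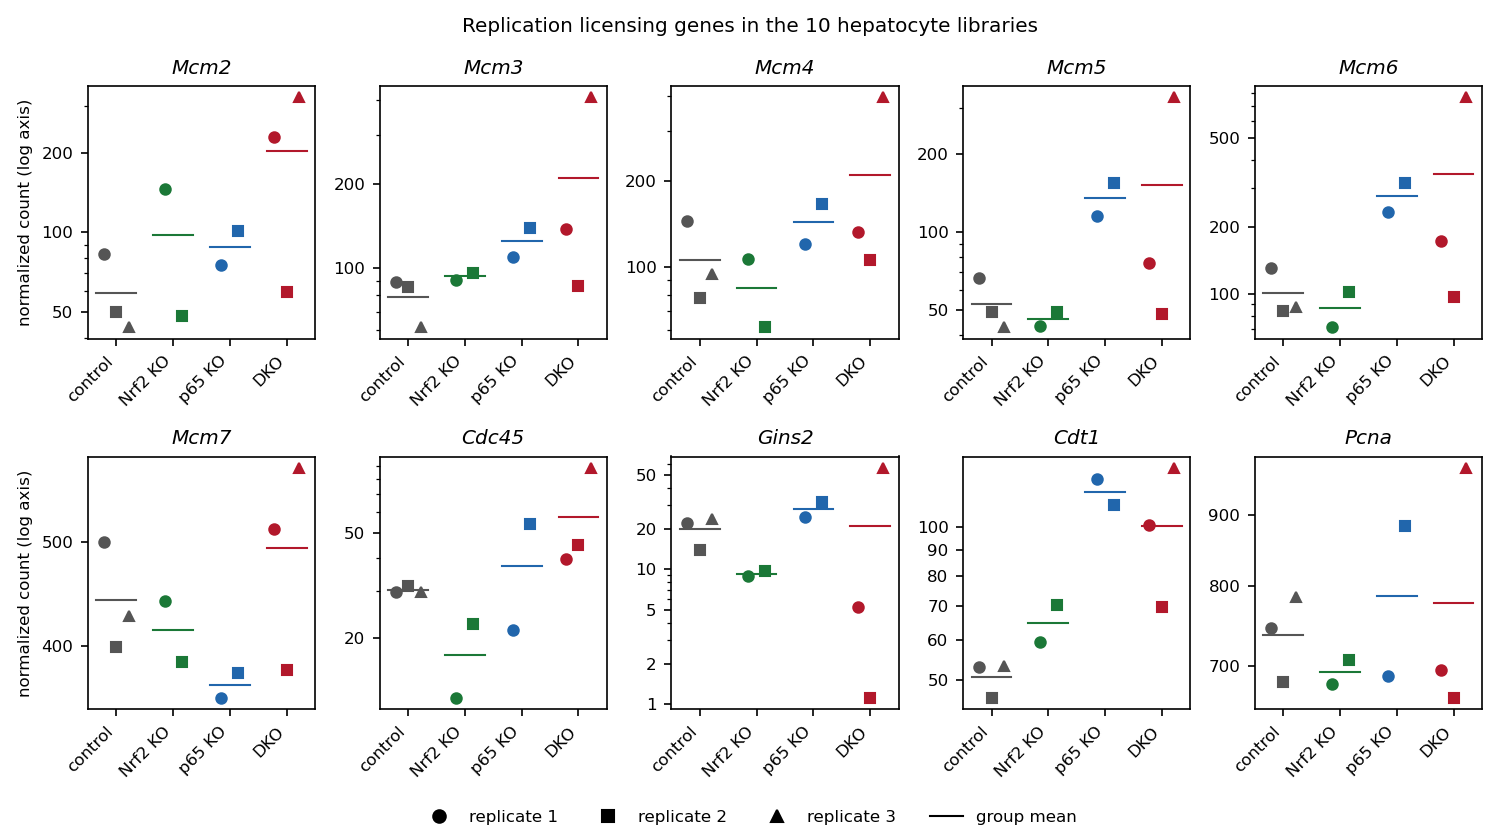
Normalized count (log axis, not starting at 0) of each of the 10 genes in each of the 10 libraries, with 1 point per mouse, the shape giving the replicate number and the line the mean of the genotype. DKO replicate 3 (red triangle) is the highest point in every panel, and for Mcm5 and Mcm6 the other 2 DKO libraries lie below both p65 KO libraries.

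Mcm5 and Mcm6, both ATPase subunits of the MCM ring, showed the same order of groups. Mcm6 (chromosome 1) had 131, 84.6, and 87.8 normalized counts in control replicates 1 to 3, 71.2 and 102 in Nrf2 KO, 233 and 316 in p65 KO, and 174, 97.6, and 761 in DKO replicates 1 to 3. Mcm5 (chromosome 8) had 66.3, 49.2, and 43.0 in control, 43.5 and 49.3 in Nrf2 KO, 116 and 155 in p65 KO, and 75.7, 48.2, and 331 in DKO. For both genes, the 2 p65 KO libraries lay above all control and Nrf2 KO libraries, whereas the DKO libraries spread from the level of control to the highest of all. The log2 fold change of p65 KO against control was 1.44 for Mcm6 (standard error 0.656, adjusted p = 0.159) and 1.36 for Mcm5 (standard error 0.636, adjusted p = 0.169), by edgeR's quasi-likelihood test over all 4 genotypes. Neither was called, for which an adjusted p no higher than 0.05 and a change of 1 or more on the log2 scale were required.

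DKO replicate 3 is not part of that comparison but enters the shared estimate of the spread, and without it the same differences had standard errors of 0.304 for Mcm6 and 0.304 for Mcm5. That library was singled out by its values for these same genes, so tests without it are a description and not separate evidence. Without that library both genes passed by the same test, Mcm6 with a log2 fold change of 1.44 (adjusted p = 0.0149) and Mcm5 with 1.36 (adjusted p = 0.0185). They also passed when only control and p65 KO were compared (adjusted p = 0.00999 for Mcm6 and 0.0206 for Mcm5), which leaves out DKO replicate 3 too. With all libraries, neither passed by DESeq2 (adjusted p = 0.212 for Mcm6 and 0.107 for Mcm5). The same held for limma on log2 values (adjusted p = 0.155 and 0.164). In DKO against control, the log2 fold change of Mcm6 was 1.77 (95% interval 0.43 to 3.11, adjusted p = 0.118) with all libraries and 0.43 (-0.27 to 1.13, adjusted p = 0.459) without DKO replicate 3. For Mcm5 it was 1.52 (0.22 to 2.82, adjusted p = 0.159) with all libraries and 0.24 (-0.47 to 0.95, adjusted p = 0.698) without that library. DKO replicates 1 and 2 lay below both p65 KO libraries for both genes. Against p65 KO they gave log2 fold changes of -1.01 for Mcm6 (adjusted p = 0.133) and -1.12 for Mcm5 (adjusted p = 0.103), whereas all 3 DKO libraries gave 0.32 and 0.16.

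Mcm3 and Mcm4, further subunits of the ring, followed with smaller differences. Mcm3 (chromosome 1) had 89.4, 85.6, and 61.6 normalized counts in control, 91.0 and 96.2 in Nrf2 KO, 109.7 and 139.9 in p65 KO, and 138, 86.4, and 407 in DKO. Both p65 KO libraries and both Nrf2 KO libraries lay above control for Mcm3, the latter by little. Mcm4 (chromosome 16) had 145, 77.7, and 94.3 in control, 107 and 61.4 in Nrf2 KO, 121 and 167 in p65 KO, and 133, 105, and 395 in DKO. Control replicate 1 was above p65 KO replicate 1 for Mcm4, so that these groups overlapped. The log2 fold change of DKO against control was 1.42 for Mcm3 (adjusted p = 0.106) and 1.00 for Mcm4 (adjusted p = 0.232). The values of the 2 remaining DKO libraries were 0.51 (adjusted p = 0.317) and 0.18 (adjusted p = 0.794).

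Mcm2 differed from the other subunits in which libraries were high. Mcm2 (chromosome 6) had 82.8, 50.2, and 43.9 normalized counts in control, 146 and 48.5 in Nrf2 KO, 75.2 and 101 in p65 KO, and 228, 59.5, and 323 in DKO. The libraries next to DKO replicate 3 were DKO replicate 1 and Nrf2 KO replicate 1. DKO replicate 2 and Nrf2 KO replicate 2 were near control, and no 2 genotypes were apart. Its log2 fold change in DKO against control was the largest of the 10 genes, 1.79 (95% interval 0.54 to 3.04, adjusted p = 0.0948), and without DKO replicate 3 it was 1.29 (0.00 to 2.59, adjusted p = 0.230).

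Mcm7, the subunit with the highest level per kilobase, hardly differed. Mcm7 (chromosome 5) had 499, 399, and 427 normalized counts in control, 441 and 387 in Nrf2 KO, 359 and 378 in p65 KO, and 513, 380, and 585 in DKO. Both p65 KO libraries lay below all control libraries, whereas the means of the other subunits were above control, with a log2 fold change of -0.26 (95% interval -0.66 to 0.14, adjusted p = 0.352). Against p65 KO, all 3 DKO libraries were higher, by 0.42 on the log2 scale (0.02 to 0.82, adjusted p = 0.205), and by 0.29 without DKO replicate 3 (adjusted p = 0.389). Against control, the log2 fold change of DKO was 0.16 with that library and 0.02 without it. The ratio of the highest to the lowest of the 10 libraries was 1.63 for Mcm7 and between 6.43 and 10.7 for Mcm2 to Mcm6.

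Cdc45 and Gins2, which join the MCM ring when an origin fires, were lower in both Nrf2 KO libraries than in all control libraries. Neither difference passed. Of all genes tested, 13.6% were lower in this way and 14.8% were higher, so such a position is common. Cdc45 (chromosome 16) had 29.8, 31.5, and 29.9 normalized counts in control, 11.9 and 22.6 in Nrf2 KO, 21.3 and 53.9 in p65 KO, and 40.0, 44.9, and 88.1 in DKO. It was higher in all 3 DKO libraries than in control or Nrf2 KO. The log2 fold change was 0.92 against control (adjusted p = 0.262) and 1.72 against Nrf2 KO (95% interval 0.52 to 2.92, adjusted p = 0.197). Leaving out DKO replicate 3 gave 0.48 (adjusted p = 0.575) and 1.29 (adjusted p = 0.316).

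Gins2 (chromosome 8) was the least abundant and the most variable. It had 22.1, 13.8, and 23.3 normalized counts in control, 8.90 and 9.70 in Nrf2 KO, 24.4 and 31.2 in p65 KO, and 5.26, 1.12, and 56.1 in DKO. DKO replicates 1 and 2, with 5 and 1 deposited counts, were the lowest of the 10 libraries and DKO replicate 3, with 49, was the highest. The mean of DKO, 20.8 ± 30.6 (SD, n = 3), was close to that of control, 19.7 ± 5.21 (SD, n = 3), and describes none of its libraries. The log2 fold change in DKO against control was 0.07 (95% interval -1.96 to 2.09, adjusted p = 0.976), and without DKO replicate 3 it was -2.56 (-4.13 to -0.99, adjusted p = 0.0710). In Nrf2 KO it was -1.07 (adjusted p = 0.849).

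Cdt1, which brings the MCM ring to origins and is degraded once S phase begins, was the only 1 of the 10 genes to pass. Cdt1 (chromosome 8) had 53.0, 46.2, and 53.2 normalized counts in control, 59.3 and 70.3 in Nrf2 KO, 124 and 111 in p65 KO, and 101, 69.6, and 130 in DKO. Every library of the 3 knockout groups lay above every control library. Cdt1 rose in p65 KO against control by 1.20 on the log2 scale (standard error 0.286, 95% interval 0.57 to 1.84), a factor of 2.30, with an adjusted p of 0.0203 by edgeR's quasi-likelihood test, in 2 of 2 libraries. In DKO the log2 fold change was 0.98 (adjusted p = 0.0566), and in Nrf2 KO it was 0.35 (adjusted p = 0.806), by the same test. DESeq2 also gave 0.98 in DKO, with an adjusted p of 0.0151, and the gene was not called there because the change was under 1. The call in p65 KO was the same without DKO replicate 3 (1.20, adjusted p = 0.0161). It did not pass the threshold without control replicate 1 (adjusted p = 0.0576), control replicate 2 (0.0554), p65 KO replicate 1 (0.128), or p65 KO replicate 2 (0.0554), and each of these left the log2 fold change between 1.12 and 1.28. In DKO it was 0.75 without DKO replicate 3 (adjusted p = 0.141) and 1.18 without DKO replicate 2 (adjusted p = 0.0307).

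Pcna, the clamp of the replication fork that also serves DNA repair, varied least. Pcna (chromosome 2) had 745, 681, and 785 normalized counts in control, 679 and 707 in Nrf2 KO, 689 and 884 in p65 KO, and 695, 664, and 973 in DKO. The groups overlapped throughout. The log2 fold change against control was -0.09 in Nrf2 KO (95% interval -0.47 to 0.30), 0.09 in p65 KO (-0.29 to 0.48), and 0.08 in DKO (-0.27 to 0.42). Leaving out DKO replicate 3 gave -0.11 in DKO (-0.40 to 0.18).

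**Figure D2:**
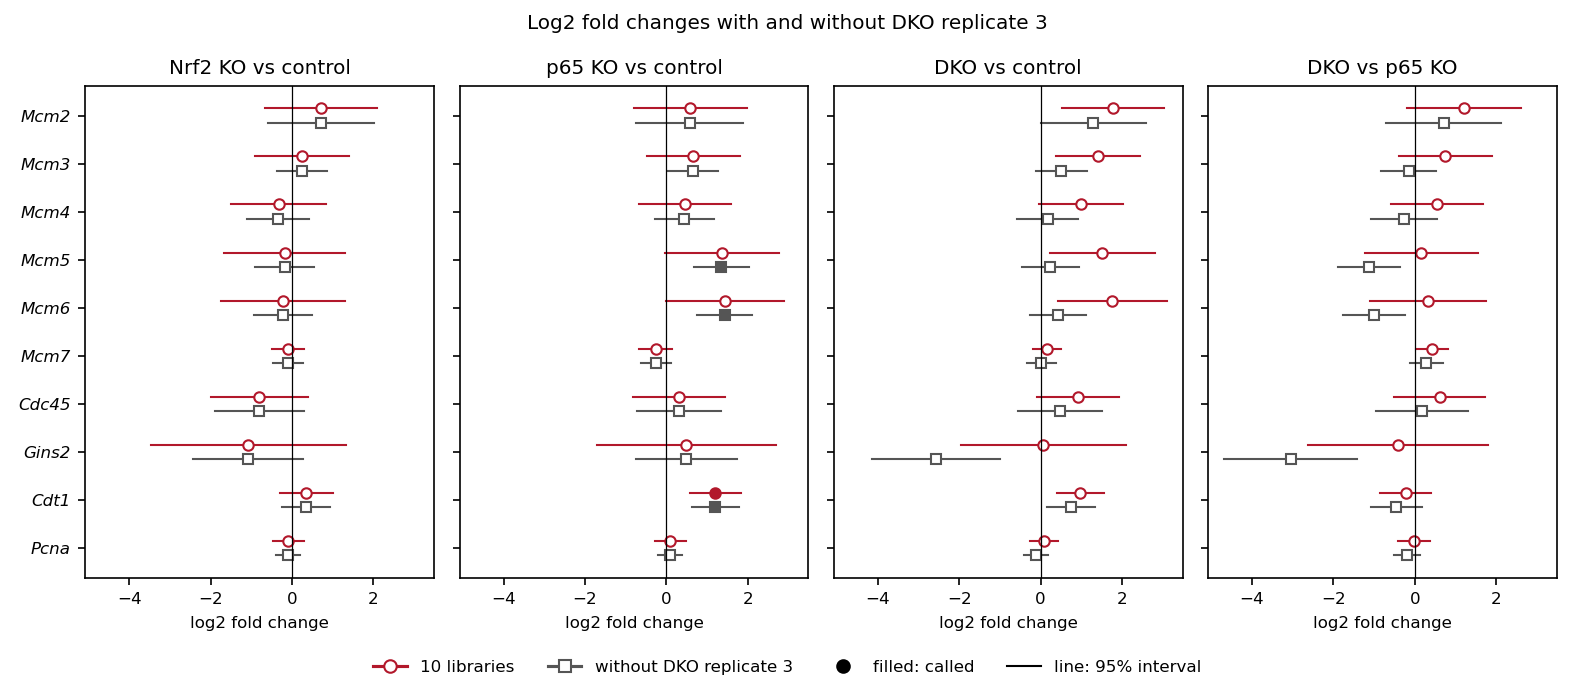
Log2 fold change (x axis) of each gene in 4 comparisons, with all 10 libraries (red circles) and without DKO replicate 3 (grey squares), where lines are 95% intervals and filled symbols are called genes. Leaving out the library moved the values in DKO against control towards 0 for Mcm2 to Mcm6 and left those in p65 KO against control in place. In DKO against p65 KO it put Mcm3 to Mcm6 below 0. The intervals of Mcm3 to Mcm6 became narrower.

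By comparison, the count of the 10 genes called was 1 in p65 KO against control, where 6.59% of all 13641 genes tested were called, and it was Cdt1. It was 0 in Nrf2 KO against control (0.55% of all genes), 0 in DKO against control (2.38%), 0 in DKO against Nrf2 KO (0.433%), 0 in DKO against p65 KO (1.78%), and 0 for the interaction (0.455%). The interaction compares the step from p65 KO to DKO with the step from control to Nrf2 KO, on the log2 scale. The comparisons share the control or the DKO libraries and are not independent of each other. At an unadjusted p under 0.05 edgeR counted 0 of the 10 genes in Nrf2 KO (9.38% of all genes), 1 in p65 KO (31.6%), and 5 in DKO (22.5%), the last being Mcm2, Mcm3, Mcm5, Mcm6, and Cdt1. It counted 5 in DKO against Nrf2 KO (14.4%), 1 in DKO against p65 KO (22.5%), and 0 for the interaction (13.8%). DESeq2 called 2 genes in DKO against control, Mcm2 (adjusted p = 0.0142) and Mcm3 (adjusted p = 0.0255), where it called 3.91% of all genes, and it called 0 where edgeR called 0 otherwise. limma on log2 values called 0 in each of those 5 comparisons.

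The calls depended on which DKO libraries were used. DKO replicate 3 was singled out by its values for these genes, so the counts without it are a description. With DKO replicate 3 left out, 3 of the 10 genes were called in p65 KO against control (Mcm5, Mcm6, and Cdt1, with 7.03% of all genes). By edgeR the count was 0 in Nrf2 KO (0.619%), in DKO against control (2.33%), in DKO against Nrf2 KO (0.494%), in DKO against p65 KO (1.75%), and for the interaction (0.67%). An unadjusted p under 0.05 was then found for 0 of the 10 genes in Nrf2 KO (10.1% of all genes), 4 in p65 KO (32.7%), and 3 in DKO (21.7%). It was found for 1 in DKO against Nrf2 KO (13.9%), 3 in DKO against p65 KO (20.8%), and 0 for the interaction (13.7%). The same 3 genes were called in p65 KO when only p65 KO and control were compared (7.63%). Without DKO replicate 2, 4 were called in DKO against control (Mcm2, Mcm3, Mcm6, and Cdt1, with 1.94% of all genes). The median log2 fold change of the 10 genes in DKO against control was 0.99 with all libraries and 0.33 without DKO replicate 3, and in p65 KO it was 0.54 in both. In Nrf2 KO the median was -0.14, with 3 genes above 0 and 7 below. With all libraries, all 10 genes were above 0 in DKO against control and against Nrf2 KO, whereas without DKO replicate 3 the count was 8 of 10 in each. Scaling to equal library totals, which moved the median over genes averaging 50 or more normalized counts by -0.0936 in DKO against control, put Gins2 (-0.03) and Pcna (-0.02) below 0 there.

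For the count of genes whose libraries did not overlap, 5 were higher and 1 lower in p65 KO than in control, where 26.2% of all genes were higher and 23.8% lower. In Nrf2 KO, 2 were higher (14.8% of all genes) and 2 lower (13.6%). In DKO 2 were higher (13.2%), Cdc45 and Cdt1, and 0 lower (13.2%). Against Nrf2 KO, DKO was higher in 1, Cdc45 (15.8%), and lower in 0 (16.4%), and against p65 KO higher in 1, Mcm7 (18.5%), and lower in 0 (20.1%). With DKO replicate 3 left out, Cdc45 and Cdt1 were higher in the remaining DKO libraries than in control (20.1% of all genes) and Gins2 was lower (17.9%). Against Nrf2 KO, Cdc45 was higher (23.7%) and Gins2 lower (22.5%). Against p65 KO, 1 gene, Mcm7, was higher (25.2%) and 4 (Mcm5, Mcm6, Cdt1, and Gins2) were lower (25.8%).

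The position of DKO replicate 3 was examined after its values had been seen. It was the highest of the 10 libraries for 10 of 10 genes, and for 9.99% of all genes tested. It was over 2 times both other DKO libraries for 5 of the 10 genes, Mcm3, Mcm4, Mcm5, Mcm6, and Gins2, and for 3.81% of all genes. Its ratio to the median of the other 9 libraries was 7.47 for Mcm6, 6.71 for Mcm5, 4.48 for Mcm3, 4.29 for Mcm2, 4.07 for Gins2, and 3.70 for Mcm4. The ratio was 2.95 for Cdc45, 1.88 for Cdt1, 1.46 for Mcm7, and 1.40 for Pcna. Second place was held by p65 KO replicate 2 for 7 genes, by DKO replicate 1 for Mcm2 and Mcm7, and by p65 KO replicate 1 for Cdt1. The sum of Mcm2 to Mcm6 was 515, 347, and 331 normalized counts in control, 459 and 357 in Nrf2 KO, 654 and 879 in p65 KO, and 748, 397, and 2216 in DKO.

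Of 68 other genes of DNA replication in 5 lists, 27 (39.7%) had their highest level in DKO replicate 3. By list these were 3 of 12 genes listed under licensing, 5 of 10 of origin firing, and 12 of 27 of the replication fork. The others were 3 of 6 of nucleotide supply and 4 of 13 E2F and pocket proteins. The licensing list held Orc1, a subunit of the origin recognition complex, and also Mcm8, Mcm9, and Mcm10, which do not load the ring. Orc1 had 14.9 normalized counts in DKO replicate 3, with 13 deposited counts, and between 0 and 3 deposited counts in every other library. Cdc6, the other loading factor, had 16.0 in DKO replicate 3 but was highest in p65 KO replicate 2 with 25.5. Gmnn, the inhibitor of Cdt1, was highest in p65 KO replicate 2 as well, with 249.5 against 170.5 in DKO replicate 3. Mcm10, at between 1691 and 3385 normalized counts, was highest in p65 KO replicate 2 and at 1886 in DKO replicate 3. DKO replicate 3 was thus the highest library for some genes of this list and not for others.

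**Figure D3:**
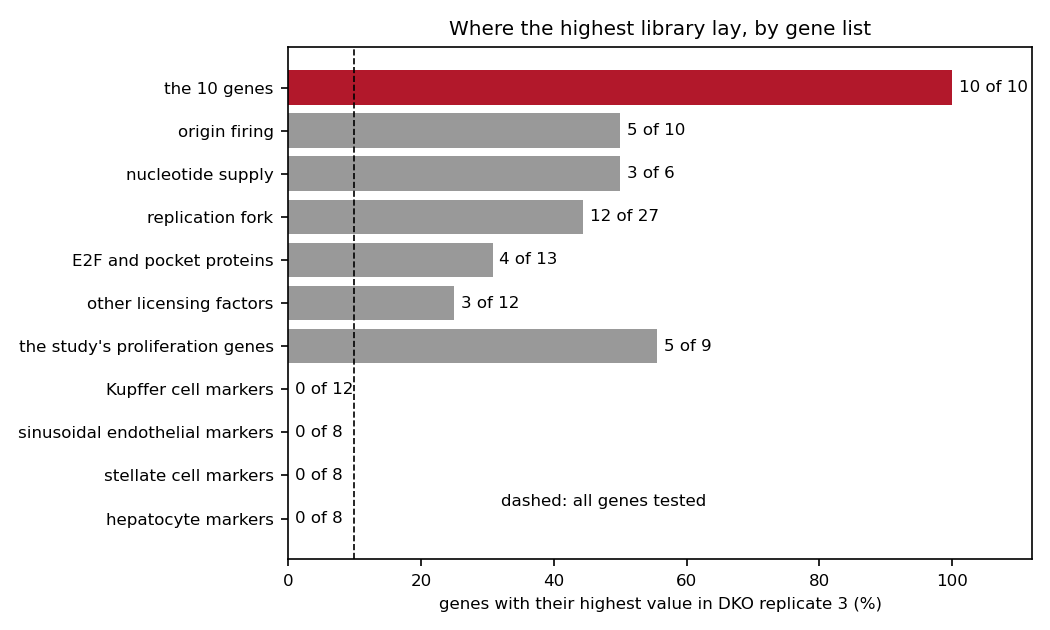
Percent of the genes of each list (x axis, from 0) whose highest value among the 10 libraries was in DKO replicate 3, with the counts beside the bars and the percent over all genes tested as a dashed line. The 10 genes described here stand at 100%, the 5 replication lists between 3 of 12 and 5 of 10, and the marker lists shown at 0.

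In DKO against control, edgeR called 1 of these 68 genes higher and 1 lower, where it called 2.38% of all genes. Recql4, a helicase needed for origin firing, rose by 1.34 on the log2 scale (adjusted p = 0.0452). E2f8, a repressor of the E2F family, fell by 1.54 (adjusted p = 0.0458). Both were still called without DKO replicate 3, at 1.49 (adjusted p = 0.0471) and -1.83 (adjusted p = 0.0464). E2f8 had 342, 266, and 116 normalized counts in control and between 62.1 and 113 in the 7 libraries of the knockout groups, so it was lower in every one of them than in any control library. In p65 KO its log2 fold change was -1.45 (adjusted p = 0.0518), and it was called without DKO replicate 3 (adjusted p = 0.0461). Pold1, the catalytic subunit of DNA polymerase delta, was the 1 gene called in DKO against p65 KO (1.15, adjusted p = 0.0443), where 1.78% of all genes were called. It was not called without DKO replicate 3 (0.89, adjusted p = 0.0802). In p65 KO 0 of the 68 were called (6.59% of all genes), and 1, Dut, passed on the adjusted p alone (-0.65, adjusted p = 0.0368), as did 14.9% of all genes. Leaving out DKO replicate 3 added Rrm2, the small subunit of ribonucleotide reductase, and E2f8 to the genes called in p65 KO. In Nrf2 KO (0.55% of all genes), in DKO against Nrf2 KO (0.433%), and for the interaction (0.455%), edgeR called 0.

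The level of these genes was set beside 9 proliferation genes that the study named from these samples (Cdk1, Ccnb1, Aurkb, Ube2c, Ncapg, Mki67, Top2a, Tpx2, and Kntc1), most of which act in mitosis. This list is not independent evidence of its direction. Their summed level was 98.3, 74.7, and 106 normalized counts in control, 16.8 and 32.3 in Nrf2 KO, 348 and 493 in p65 KO, and 210, 235, and 564 in DKO. The groups were apart for this sum, except p65 KO and DKO, which overlapped. In p65 KO 5 of the 9 were called (7 without DKO replicate 3), and in DKO 2 of 9 (1 without it). Mki67, the gene of the Ki67 antigen, rose by 2.48 on the log2 scale in p65 KO (adjusted p = 0.00561) and by 2.00 in DKO (adjusted p = 0.0196). Kntc1, of the spindle checkpoint, and Ube2c, of the anaphase-promoting complex pathway, were also called in p65 KO (adjusted p = 0.0216 and 0.0227), and Kntc1 in DKO (adjusted p = 0.0321, and 0.0619 without DKO replicate 3), where each control library had 1 deposited count of Kntc1. Against Nrf2 KO, DKO was higher for Mki67 (adjusted p = 0.00835) and Ccnb1 (adjusted p = 0.0369), of which Mki67 was still called without DKO replicate 3 (adjusted p = 0.00812) and Ccnb1 was not (adjusted p = 0.0599). In Nrf2 KO 0 of the 9 were called, with a median log2 fold change of -2.34, where that of the 10 replication genes was -0.14. The median of the 9 rests on few counts. Aurkb and Kntc1 were at 0 in both Nrf2 KO libraries, and Cdk1, the most abundant of the 9 there, had 6.92 and 18.6 normalized counts. DKO replicate 3 was the highest library for 5 of the 9.

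Markers of Kupffer, sinusoidal endothelial, and stellate cells were higher in p65 KO than in control. Other marker lists went both ways there. Their median log2 fold change was 3.83 for monocytes and dendritic cells (6 of 8 markers tested), 2.04 for neutrophils (4 of 6), and 1.19 for T and NK cells (5 of 8). It was -0.36 for B cells (3 of 5), -0.78 for cholangiocytes (2 of 5), and -0.80 for erythroid cells (5 of 6). The first 3 of these medians rest on counts near 0. In each control library, 4 to 6 of the 8 monocyte and dendritic cell markers were at 0. So were 3 or 4 of the 6 neutrophil markers and 5 to 7 of the 8 T and NK cell markers. The summed level of 12 Kupffer cell markers was between 368 and 957 normalized counts in control, 814 and 254 in Nrf2 KO, 6190 and 4516 in p65 KO, and 2905, 2041, and 1715 in DKO replicates 1 to 3. All 12 were called higher in p65 KO and 6 of 12 in DKO (5 without DKO replicate 3), and none of the 12 was at 0 in any library. For 8 markers of sinusoidal endothelial cells the sum was between 636 and 1378 in control, between 800 and 1574 in Nrf2 KO, 4549 and 3128 in p65 KO, and between 1657 and 2391 in DKO, with 8 of 8 called in p65 KO and 1 of 8 in DKO. For 8 stellate cell markers it was between 179 and 381 in control, between 169 and 278 in Nrf2 KO, 1886 and 1821 in p65 KO, and 332, 886, and 341 in DKO, with 6 of 8 called in p65 KO (7 without DKO replicate 3) and 1 of 8 in DKO. The part of these cells in the levels of Cdt1, Mcm5, and Mcm6 in p65 KO was not tested. Within p65 KO, replicate 1 had the higher sum of Kupffer cell, endothelial, and stellate cell markers and the higher level of Cdt1 (124 against 111). Replicate 2 had the higher level of Mcm5 and Mcm6. DKO replicate 3 had the lowest sum of Kupffer cell and of endothelial markers among the DKO libraries, and it was the highest library for 0 of the markers in any of these lists.

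**Figure D4:**
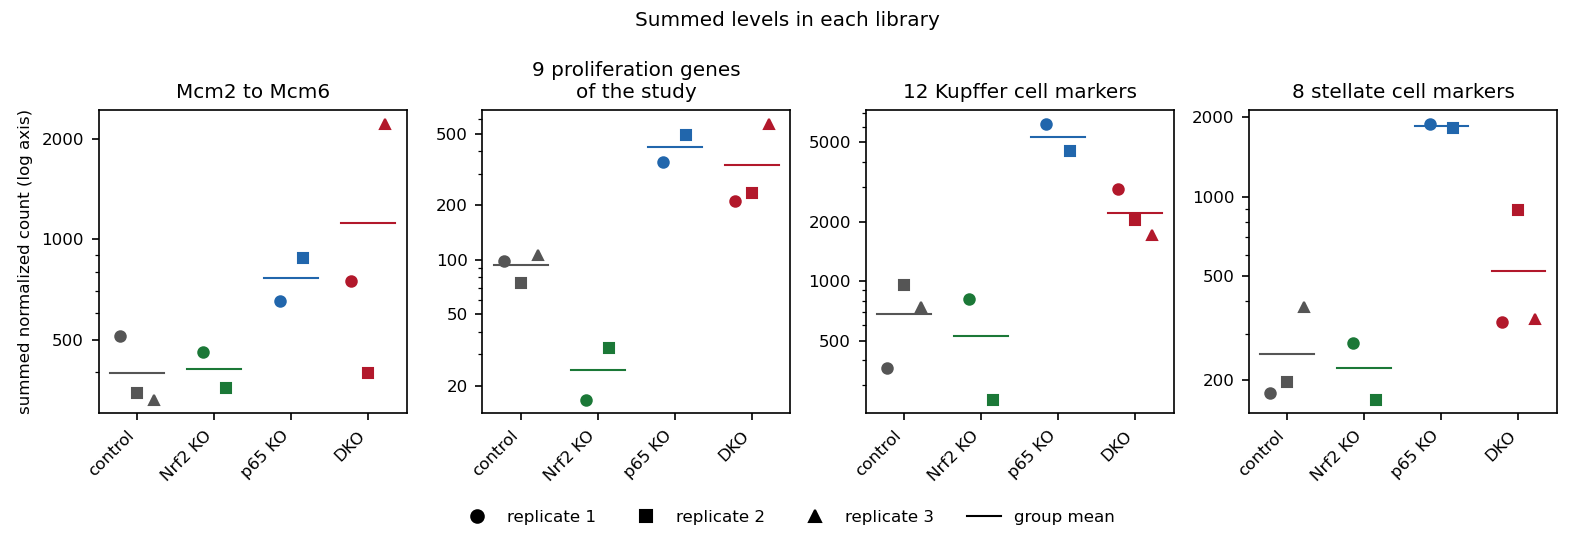
Summed normalized count (log axis, not starting at 0) in each library of Mcm2 to Mcm6, of the study's 9 proliferation genes, of 12 Kupffer cell markers, and of 8 stellate cell markers, with 1 point per mouse and lines for the mean of each genotype. DKO replicate 3 is highest in the first pair of panels (2216 and 564), and p65 KO is highest in the marker panels.

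Across the 10 libraries the genes followed each other to different degrees. The Pearson correlation of log2(normalized count + 1) of each gene with the mean z-score of the other 9 was 0.95 for Mcm6, 0.94 for Mcm5, 0.93 for Mcm4, and 0.93 for Mcm3, followed by Pcna with 0.81, Mcm2 with 0.73, Cdt1 with 0.69, and Cdc45 with 0.67. It was lowest for Mcm7 (0.55) and Gins2 (0.54). Without DKO replicate 3 it was 0.89 for Mcm6 and 0.87 for Mcm5, but 0.00 for Mcm7 and 0.26 for Gins2. The closest pair was Mcm5 and Mcm6, with 0.99 over 10 libraries and 0.98 over 9. All values come from the same 10 libraries, share their normalization, and are a description.

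Among the other genes that averaged 20 or more normalized counts, 11030 in all, the pattern most like the mean of the 10 genes was that of Pole (0.96, and 0.89 without DKO replicate 3), the catalytic subunit of DNA polymerase epsilon. It was followed by Lig1, the ligase that joins Okazaki fragments (0.95 and 0.82), Hells, a chromatin remodeller (0.92 and 0.90), and Rpa1, which coats single-stranded DNA (0.92 and 0.68). Arf2, Trim24, Dynlt1b, Fbxo45, Dda1, and Fam83d followed with values between 0.90 and 0.91. This order depended on DKO replicate 3. Without it, 1 of these 10 genes, Hells, was still among the 10 most alike, which were led by Tmem120b (0.96), Bysl (0.96), and Ctps1 (0.94). Pole had 42.0, 38.4, and 45.8 normalized counts in control, 25.7 and 25.1 in Nrf2 KO, 47.7 and 123 in p65 KO, and 90.5, 39.3, and 311 in DKO. DKO replicate 3 was highest for Pole too, followed by p65 KO replicate 2.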

How the data were processed

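RNA was sequenced from hepatocytes of 10 mice. Per the labels, the authors estimated transcript abundance with Salmon 1.10.3 on GRCm39, with GENCODE M33 and a stranded setting per the study's methods, and deposited whole-number estimated counts per gene for each mouse. The table is called normalized, but its totals (33707165 to 49897382) and size factors (0.879 to 1.26) differ, so the values were used as estimated counts. Each column was assigned by its name.

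Counts were tested with edgeR 4.0.16 (quasi-likelihood test, TMM) in R 4.3.3, with limma 3.58.1, over the 13641 genes whose counts sum to 10 or more, in 1 model of all 4 genotypes. Benjamini-Hochberg adjustment was over all genes in each of 6 comparisons, and intervals are 95%. Each p-value reflects the spread between mice. The code was tested on simulated data. Replicates of 1 genotype differed beyond sampling noise (chi-square per degree of freedom from 44.8 to 204).

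Genes were named as the 10 genes described, the targeted genes, up to 3 called genes per list and comparison with the lowest adjusted p, and the 10 most like the mean pattern. Orc1, Cdc6, Gmnn, Mcm10, Rrm2, Dut, Tmem120b, Bysl, and Ctps1 were picked once their values were known, and the gene lists were written from general knowledge. The genes and lists were chosen with earlier results of these data known. Alternatives were DESeq2 1.42.0, limma on log2(normalized count + 1), other scalings and filters, only the 2 genotypes compared, the replicate number as a block, and each library left out. The share of all genes called under an alternative was added after seeing the data. Positions are from GENCODE M39. Plots were made in Python 3.11.15 (matplotlib 3.10.9).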

Additional observations from a re-analysis of the deposited data

How the results depend on the processing

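The counts of the 10 genes called were the same for all 6 comparisons under limma on log2 values, DESeq2's size factors in edgeR, upper-quartile scaling, scaling to equal library totals, no filter on low counts, a filter on a mean of 10 counts, and the adjusted p alone. In p65 KO against control the count was 1, and it was 3 when only the 2 genotypes were compared. In DKO against control it was 0, and 2 by DESeq2. Leaving out 1 library at a time gave 0 to 3 in p65 KO (3 without DKO replicate 3) and 0 to 4 in DKO (4 without DKO replicate 2). For the other 4 comparisons, each of these settings gave 0.

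The replicate number as a block gave 1 in p65 KO and 0 in each of the other comparisons. Whether the numbers pair the mice could not be decided. The deviations of libraries with the same number from their group means had correlations between -0.232 and 0.113 over 10185 genes. Those with different numbers had correlations between -0.17 and 0.232. Within Nrf2 KO and within p65 KO, the deviations are equal and opposite by construction, so these ranges partly mirror each other. Libraries with the same number were not the more alike, with a median of -0.0562 against 0.0301 for different numbers.

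No called gene changed direction. Under an alternative, 55 single log2 fold changes turned sign, each without a call. Scaling to equal totals moved the median over genes averaging 50 or more normalized counts by 0.177 in p65 KO, -0.0936 in DKO, and -0.270 in DKO against p65 KO, and the other scalings by less than 0.04. It put Mcm5 at -0.13 in DKO against p65 KO, where TMM gave 0.16. The depth limits Gins2 most, which had 1 to 49 deposited counts per library. The intervals of Mcm2 to Mcm6 spanned between 2.05 and 3.06 units of log2 fold change in the comparisons with control. Without DKO replicate 3, those of Mcm3 to Mcm6 spanned between 1.23 and 1.52 and those of Mcm2 between 2.58 and 2.63.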
